A study of Mus musculus with 4 samples.

Results

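Lungs of mice that carried small cell lung cancer (SCLC) and received a CDK7 inhibitor together with a PD-1 blocking antibody were compared, cell by cell, with lungs of mice that received the antibody alone, so that the 2 libraries differ in the added inhibitor. All barcodes of these 2 libraries with at least 500 unique molecular identifiers (UMIs, counted RNA molecules), at least 300 detected genes and at most 10% mitochondrial UMIs were taken as cells. There were 2736 in the anti-PD-1 library and 4042 in the combination library, 6778 of 14411 in the series. After 60 and 131 likely doublets were removed, 6587 remained, of which 6083 fell into 6 classes with at least 50 cells in each library. The mice had been injected in the lung with mouse SCLC cells and followed by MRI. The anti-PD-1 group had 200 µg of antibody clone 29F.1A12 per mouse and the combination group the same antibody with YKL-5-124 at 10 mg/kg. The antibody was given on Monday, Wednesday and Friday and the inhibitor on each weekday. The 2 other libraries, vehicle with isotype IgG (called control) and YKL-5-124 alone, were used as a second pair that differs in the same inhibitor and shares no library with the first. Whole lungs were digested with collagenase D and DNase I, live cells were sorted with DAPI, and 10x Genomics 3'-end libraries were made. The strain, sex and age of the mice, the origin of the tumour cells, the length of treatment and the number of animals in a library were not given in what was used here.

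CDK7 is the kinase subunit of the CDK-activating kinase. In that complex it phosphorylates the cyclin-dependent kinases that drive the cell cycle, and within the general transcription factor TFIIH it phosphorylates RNA polymerase II at the start of transcription. YKL-5-124 is a covalent inhibitor of CDK7. PD-1, encoded by Pdcd1, is an inhibitory receptor of activated T cells, and antibodies against it release that inhibition. SCLC is a neuroendocrine lung tumour with very high proliferation and, as a rule, little MHC class I on its surface.

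Each group was 1 library. No difference below has a replicate check, no test across animals was possible, and treatment cannot be told apart from the animals, the dissection or the library. Intervals in parentheses are 95% intervals of counting error only. A gene was called measured in a class when its mean over the 2 libraries was at least 10 CPM, which are counts per 1000000 UMIs of the class, and "rose" or "fell" means a change of at least 1.5-fold after 10 CPM were added to both sides. The rule is one of size, since nothing was tested. Ratios are plain CPM ratios, combination over anti-PD-1 unless another pair is named, and log2 values include the 10 CPM. In each set of 4 values the order is control, anti-PD-1, YKL-5-124, combination.

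The libraries held 17329001 to 22950622 UMIs, of which 73.0% to 78.5% lay in the cells kept, with a median of 1939 to 2239 UMIs per cell. They also shared barcodes: 658 barcodes were kept as cells in more than 1 library and 537 in both the anti-PD-1 and the combination library, where 15 would be shared if barcodes were drawn at random. Barcodes that held at least 10 times as many UMIs in another library are called copies here. Copies made up 16.3% of the cells of the anti-PD-1 library (447) and 9.55% of the combination library (386), and nearly all of them were shallow tumour cell-like barcodes. They held 1.8% to 3.37% of the UMIs in cells, so they weigh on shares of cells far more than on summed expression. The ratio of combination to anti-PD-1 is therefore given with and without copies for each class share below.

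Tumour cell-like cells, named from Chga, Calca and other neuroendocrine markers, made up a smaller share of the combination library than of the anti-PD-1 library. The shares in the 4 libraries were 29.6%, 33.2%, 22.8% and 20.6% (1002, 888, 913 and 806 cells), which puts both libraries with inhibitor below both without. The labels call the samples mouse SCLC, but in every library most cells were immune cells. The summed tumour markers within the class were 4856, 5040, 4952 and 5466 CPM. The ratio of combination to anti-PD-1 was 0.621 (0.564 to 0.684), and that of YKL-5-124 to control was 0.768 (0.702 to 0.841). Without copies the shares were 22.5%, 20.4%, 15.8% and 12.7%, and the ratio was 0.623 (0.546 to 0.711). A share depends on every other class, and myeloid cells were more numerous in both libraries with inhibitor. Counted outside the myeloid classes, the tumour share was 38.1% and 26.3% in the anti-PD-1 and combination libraries, a ratio of 0.690 (0.627 to 0.760), while that of YKL-5-124 to control was 1.001. Without copies these 2 ratios were 0.692 (0.606 to 0.790) and 0.946.

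T cell-like cells, named from the CD3 and T cell receptor genes, made up 24.3%, 22.1%, 17.2% and 26.5% of cells (823, 592, 691 and 1037). The combination was the highest of the 4 libraries and YKL-5-124 alone the lowest, so the inhibitor went with a higher T share beside the antibody, 1.2-fold (1.08 to 1.33), and with a lower one without it, 0.708-fold. Without copies the first ratio was 1.109 (1.001 to 1.229), and outside the myeloid classes it was 1.332 against 0.922 for YKL-5-124 over control, or 1.232 (1.112 to 1.365) and 0.940 without copies. Whether the 2 ratios differ beyond differences between animals was not tested.

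Among the myeloid cells, monocyte- or macrophage-like cells took 7.57%, 9.57%, 14.3% and 17.1% (256, 256, 573 and 667 cells), higher in both libraries with inhibitor by about the same ratio, 1.783 (1.541 to 2.067) beside the antibody and 1.887 without it. Without copies the first was 1.647 (1.42 to 1.91). Neutrophil-like cells took 2.78%, 3.21%, 16.9% and 4.48%, so the library of YKL-5-124 alone stood far above the other 3. The ratio beside the antibody was 1.392 (1.07 to 1.824), or 1.282 (0.985 to 1.679) without copies, and that without the antibody was 6.09. The NK cell-like share had a ratio of 0.895 (0.765 to 1.047) with all cells and 0.824 (0.704 to 0.964) without copies, and only the second interval lies below 1. B cell-like cells were a smaller share in the combination, 15.7% against 12.7% (0.812, 0.711 to 0.927), or 0.747 (0.655 to 0.853) without copies. Among small classes, conventional dendritic cell-like cells numbered 24, 16, 28 and 70 (2.99, 1.72 to 5.52) and plasma cell-like cells 38, 36, 17 and 18 (0.342, 0.183 to 0.618). Endothelial cell-like cells numbered 80, 16, 17 and 68, so the control and combination libraries held the many and the other two the few. Without copies the ratio was 2.755 (1.58 to 5.08) for the dendritic cells, 0.236 (0.111 to 0.471) for the plasma cells and 2.68 (1.54 to 4.945) for the endothelial cells.

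**Figure D1:**
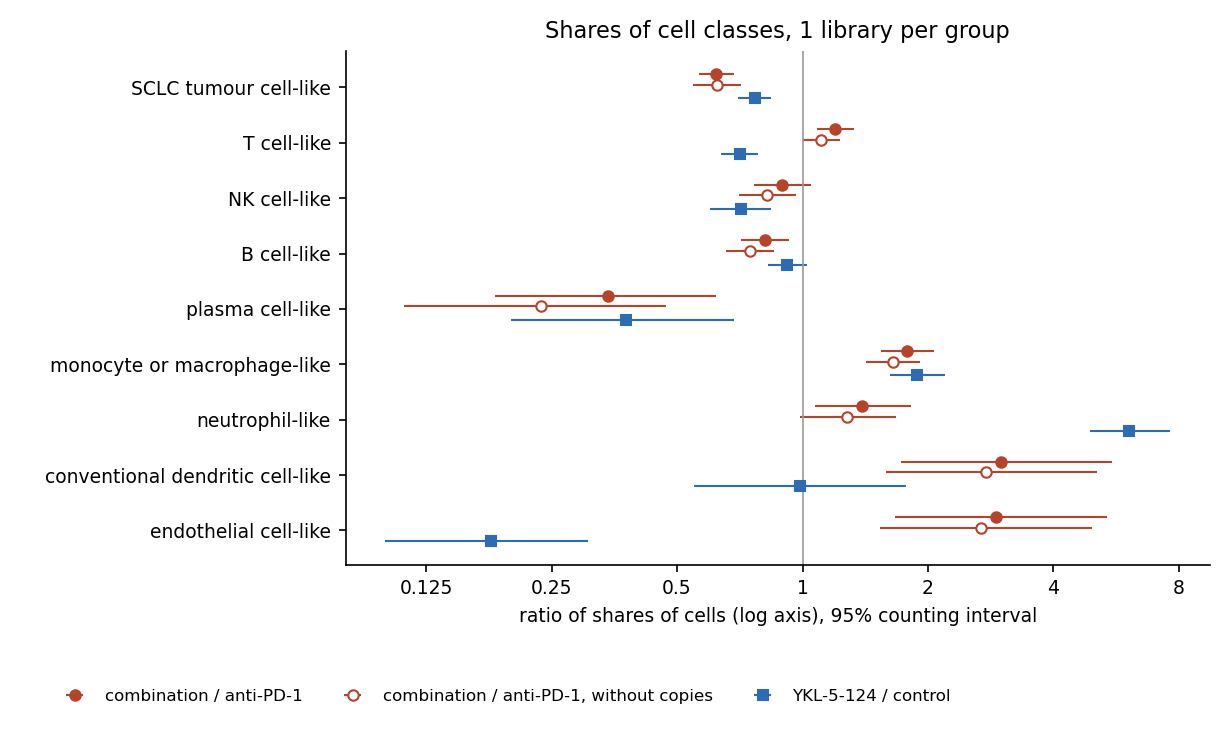
Ratio of each class's share of cells on a log axis, combination over anti-PD-1 with all cells (filled circles) and without copies (open circles) and YKL-5-124 over control (squares); bars are 95% intervals of counting error, and each ratio compares 1 library with 1. The tumour cell-like ratio is 0.621 with all cells and 0.623 without copies, and the T cell-like and endothelial cell-like ratios lie on opposite sides of 1 in the 2 pairs.

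The T cell-like cells of the combination library carried more RNA of mitosis genes. Of 42 measured genes of the G2 and mitosis list, 33 rose and none fell, and 40 had a log2 ratio above 0, with a median of 0.88. Over all 6837 genes measured in these cells 303 (4.43%) rose and 88 (1.29%) fell, with a median of 0.04. The same 42 genes compared between YKL-5-124 and control gave 35 that rose and a median of 1.11, and 32 rose in both pairs. Of the 42, 4 were under 10 CPM with anti-PD-1 and counted as measured through the combination library alone, which fixes their direction. Of the other 38, 29 rose. T cells rarely divide unless stimulated, and these genes are transcribed as a cell approaches and passes mitosis.

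Sequences upstream of these genes are shown because the members moved together. Promoters of mitosis genes are known for 2 short elements, the CCAAT box bound by NF-Y and the cell cycle genes homology region (CHR, TTTGAA) bound by the DREAM and MuvB complexes. In the 250 bases before to 50 bases after each gene's start, in RefSeq's GRCm38.p6, TTTGAA or its reverse TTCAAA was found in 22 of 30 (73.3%) of the 33 higher genes that had an entry, and CCAAT or its reverse ATTGG in 26 (86.7%). Both were found in 22 (73.3%). Of all 27025 promoters of the same length, 18.1% held the first, 37.9% the second and 7.12% both. Among the 38 promoters of all measured members 73.7%, 76.3% and 63.2% did, a set that includes the members that rose. The 3 sequences below run from 150 bases before to 20 bases from the start on, 5' to 3' on the minus strand, and belong to the highest-ratio members of the list for which that shorter stretch held a CHR. Capitals mark every match of either element in either orientation. They belong to Mki67 (chr7:135716360-135716529), Cks1b (chr3:89418272-89418441) and Cdca8 (chr4:124936898-124937067).
Mki67: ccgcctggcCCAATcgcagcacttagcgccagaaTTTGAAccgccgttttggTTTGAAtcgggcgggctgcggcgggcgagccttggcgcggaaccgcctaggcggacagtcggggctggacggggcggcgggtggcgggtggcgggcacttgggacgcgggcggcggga
Cks1b: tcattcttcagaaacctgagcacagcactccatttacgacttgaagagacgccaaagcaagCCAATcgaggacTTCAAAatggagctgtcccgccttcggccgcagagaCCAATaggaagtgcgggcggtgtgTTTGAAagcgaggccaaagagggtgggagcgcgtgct
Cdca8: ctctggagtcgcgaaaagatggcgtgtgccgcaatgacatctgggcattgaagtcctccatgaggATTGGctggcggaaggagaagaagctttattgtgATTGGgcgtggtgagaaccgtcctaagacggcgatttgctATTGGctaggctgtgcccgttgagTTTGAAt
A match is a run of letters in a window and not evidence that a factor was bound in these cells.

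Mki67, a protein that coats mitotic chromosomes and is the usual marker of dividing cells, stood at 23.4, 34.0, 124.6 and 116 CPM in the T cell-like cells of the 4 libraries, a ratio of 3.42 (2.54 to 4.69). Both libraries with inhibitor were high and both without were low. Its UMIs came from 18 cells of the anti-PD-1 library and 99 of the combination library. Birc5 (survivin, of the chromosomal passenger complex) stood at 39.4, 37.4, 189 and 167 CPM, a ratio of 4.47 (3.39 to 6.02), with UMIs in 20 and 89 cells. Cks1b, a small subunit of cyclin-dependent kinases, stood at 52.8, 37.4, 135 and 120 CPM, a ratio of 3.21. Cdca8 (borealin), a partner of Birc5, stood at 27.7, 22.4, 83.6 and 73.1 CPM, a ratio of 3.26. For all 4 genes the 2 libraries with inhibitor lay above the 2 without. Top2a, the topoisomerase that untangles sister chromatids, had a ratio of 2.56 (2.09 to 3.17), the mitotic kinase Plk1 5.47 (2.67 to 13.03), Ccnb1 (cyclin B1) 4.10 and its kinase Cdk1 3.51.

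Genes of DNA replication moved less. Of 37 measured members of the G1/S list, 11 rose and 0 fell, with a median log2 ratio of 0.43, against 22 and 0.79 for YKL-5-124 over control. Of the 37, 7 counted as measured through the combination library alone, which fixes their direction. Of the other 30, 7 rose. The members that rose included Rrm2, a subunit of ribonucleotide reductase, at 37.8, 44.2, 180 and 133 CPM. Pclaf, a partner of the replication clamp PCNA that is not on the list, stood at 66.6, 66.0, 287 and 231 CPM. The linker histone Hist1h1b, which is made in S phase, stood at 23.98, 21.8, 178 and 139 CPM, a ratio of 6.37 (4.44 to 9.42), with UMIs in 11 and 68 cells. Cdk7 itself did not move in the T cell-like cells, with a ratio of 0.968, although this is its mRNA and not the kinase's activity.

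Shares of cells with cell cycle UMIs depended on how many UMIs were asked for. After each cell was thinned to 800 UMIs, cells with at least 2 UMIs of cell cycle genes were 42.6% of T cell-like cells with anti-PD-1 and 41.9% with the combination, a ratio of 0.983 (0.838 to 1.156). Cells with at least 3 were 17.4%, 18.5%, 23.97% and 22.9%, a ratio of 1.24 (0.980 to 1.57) whose interval includes 1. Cells with at least 5 such UMIs were 3.48%, 4.01%, 9.41% and 9.52%, a ratio of 2.37 (1.49 to 3.92). Without thinning, 65.2% and 67.8% of the anti-PD-1 and combination cells had at least 3. In free RNA, taken from barcodes with 10 to 100 UMIs, Birc5 was 0.993-fold and Mki67 0.835-fold in the combination, so RNA of these genes outside cells was not higher there.

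The clusters of T cell-like cells differed in these genes, and the list had its highest median in cluster 6. Cluster 6, led by Tnfrsf4, Ctla4, Ikzf2 and Pdcd1, which mark regulatory and antigen-stimulated T cells, had 155 cells in the anti-PD-1 and 377 in the combination library. Within it 37 of 50 measured G2 and mitosis genes rose, with a median log2 ratio of 0.82 (0.89 for YKL-5-124 over control), where 7.77% of all genes measured in that cluster rose. Within cluster 6 Mki67 stood at 90.1, 94.6, 286 and 212 CPM, a ratio of 2.24 (1.64 to 3.14), Birc5 had a ratio of 3.04 and Top2a 1.83. In cluster 4, led by the naive T cell genes Lef1 and Tcf7, 0 of 20 rose, with a median of -0.05, and in cluster 7, led by Cd8b1 and Cd8a, 2 of 17 with a median of -0.03. In cluster 11, led by Xcl1 and Trdc, 10 of 25 rose and 1 fell, with a median of 0.49, where 11.1% of all genes rose. With cluster 6 left out, 1 measured member of the list rose in the remaining T cell-like cells and the median turned to -0.01. With every cell given equal weight, 12 rose.

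T cell-like cells were also split by lineage. Cells with Cd4 UMIs and no Cd8 UMIs were 11.99% and 16.3% of T cell-like cells in the anti-PD-1 and combination libraries, and cells with Cd8a or Cd8b1 UMIs and no Cd4 UMIs 43.8% and 36.2%. Thinned to equal depth the ratios were 1.47 (0.946 to 2.34) for CD4 and 0.856 (0.710 to 1.03) for CD8. Among the B cell-like cells, which should lack both, thinned shares of CD4 cells were 0 and 0 and of CD8 cells 0.245% and 0.407%. Of the G2 and mitosis list 31 of 48 measured genes rose in CD4 cells (median 1.06, where 15.7% of all genes rose), 29 of 38 in CD8 cells (1.05, 5.84%) and 14 of 41 in cells with neither (0.46, 6.0%).

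**Figure D2:**
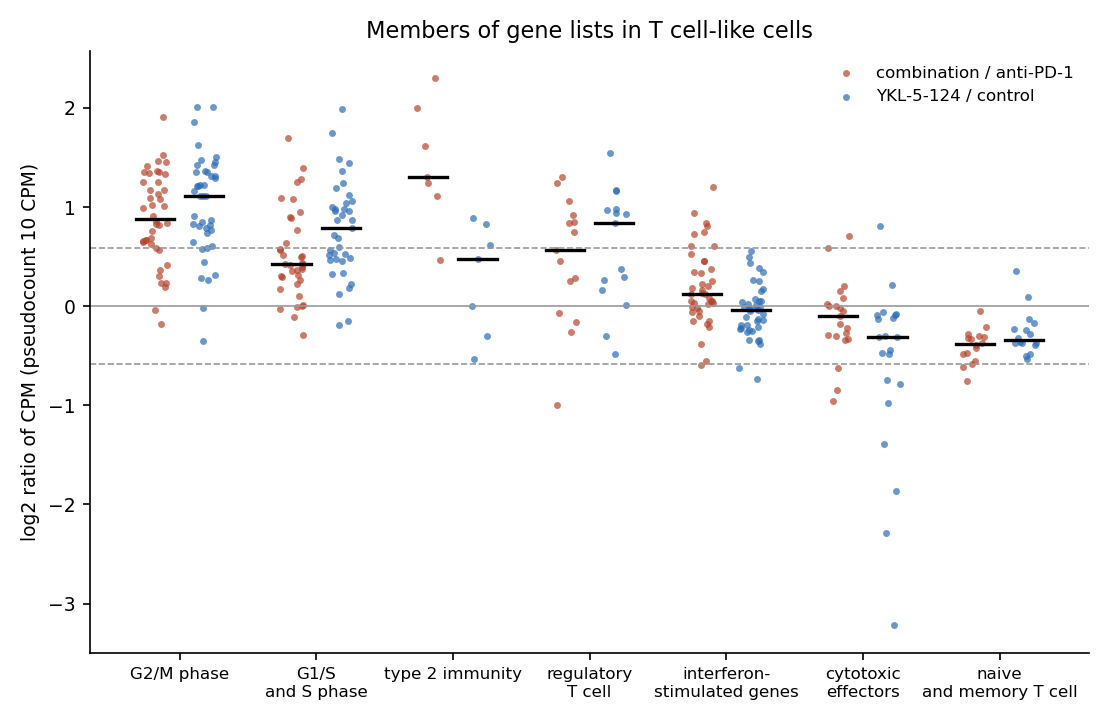
Log2 ratio (10 CPM added) of every measured member of 7 gene lists in T cell-like cells, combination over anti-PD-1 in red and YKL-5-124 over control in blue; each point is a gene, black bars are medians and dashed lines mark 1.5-fold. The G2 and mitosis list has medians of 0.88 and 1.11, the type 2 list 1.30 and 0.48, and all 16 naive genes lie below 0 in the first pair.

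Genes of type 2 immunity rose in the same cells. This is the arm of immunity that responds to worms, allergens and tissue injury, and interleukin-33 from damaged lung epithelium sets it off through the receptor ST2. Of 7 measured genes of the list, 6 rose, with a median log2 ratio of 1.30, and in YKL-5-124 over control 3 rose, with a median of 0.48. The list has 16 members. Il13, Il1rl1, Ccr4 and Ltb4r1 were under 10 CPM with anti-PD-1 and counted as measured through the combination library alone, which fixes their direction, so the count is a description. Of the 3 others Gata3 and Areg rose. Il1rl1, which encodes ST2, stood at 3.20, 8.16, 13.5 and 45.6 CPM, a ratio of 5.58 (3.10 to 11.1), and its UMIs were in 6 and 79 cells. Gata3, the master regulator of type 2 lymphocytes, stood at 51.7, 74.1, 104 and 172 CPM, a ratio of 2.32 (1.88 to 2.87). Areg (amphiregulin, a growth factor for epithelial repair) stood at 124.7, 66.0, 99.3 and 177 CPM, a ratio of 2.68 (2.16 to 3.36). The combination was the highest of the 4 libraries for each of these genes, and anti-PD-1 the lowest for Areg.

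Ltb4r1, the receptor for leukotriene B4, stood at 7.46, 2.72, 16.7 and 52.7 CPM, a ratio of 19.4 (7.43 to 71.9), from 4 and 54 cells. Ccr4, a chemokine receptor of type 2 helper and regulatory T cells, had a ratio of 6.38 (2.61 to 20.3). The cytokine Il13 had 1, 0, 1 and 97 UMIs, at least 14.7-fold higher in the combination when the anti-PD-1 count is set to a floor of 3 UMIs over the class. These 97 UMIs came from 15 cells, and 77.3% of them from 5 cells, without which the log2 ratio of Il13 was 0.75. With 0 anti-PD-1 UMIs that ratio could not be negative. Ltb4r1, Il1rl1, Il13 and Gata3 are also markers of group 2 innate lymphoid cells (ILC2), which lack T cell receptors. The summed level of the ILC2 markers in T cell-like cells was 190, 154, 236 and 484 CPM, and all 5 measured ones rose, whereas the summed T cell markers stood at 9288 CPM with anti-PD-1 and 9083 with the combination. All 79 combination cells with Il1rl1 and all 15 with Il13 carried a UMI of the CD3 and T cell receptor genes, as did all 227 with Gata3. The class was named from these genes, so such a UMI cannot tell T cells from ILC2 here. Of the cells with Il1rl1 and Il13, 75 and 14 lay in cluster 6, and 23 of the 79 had a Foxp3 UMI. In free RNA the ILC2 markers summed to 53.1 CPM in the anti-PD-1 and 178 CPM in the combination library, and their part in the result was not tested. Within cluster 6, 8 of 10 measured type 2 genes rose and 1 fell, with a median of 0.98, against -0.07 for YKL-5-124 over control. There Il1rl1 had a ratio of 3.26, Ltb4r1 11.4, Gata3 1.75 and Areg 1.65.

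Regulatory T cells restrain other T cells and depend on Foxp3, on the interleukin-2 receptor and on CTLA-4. Of 15 measured genes of their list 7 rose and 1 fell, with a median of 0.57, against 8 and 0.84 for YKL-5-124 over control. Il2ra and Lrrc32 counted as measured through the combination library alone, which fixes their direction. Of the other 13, 6 rose and 1 fell. Ctla4 stood at 93.8, 118, 194 and 233 CPM, a ratio of 1.97 (1.67 to 2.34), from 93 and 263 cells. Il2ra, the high-affinity interleukin-2 receptor chain, stood at 9.06, 8.16, 32.9 and 32.8 CPM, a ratio of 4.03 (2.21 to 8.04). Both libraries with inhibitor were the high ones for these 2 genes. Nrp1 (neuropilin 1) had a ratio of 2.61, Capg, which caps actin filaments, 1.84, Tnfrsf4 (OX40) 1.82 and the transcription factor Ikzf2 (Helios) 1.72. Foxp3 stood at 11.7, 15.6, 16.7 and 25.1 CPM, a ratio of 1.61 (0.9996 to 2.67), which did not reach the size rule with 10 CPM added. Its UMIs were in 13 and 55 cells. Within cluster 6 the list showed little change on balance (4 rose and 3 fell of 18, median 0.15), and there Ctla4 had a ratio of 1.38 (1.15 to 1.66) and Foxp3 0.947.

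Pdcd1, the target of the antibody, stood at 85.3, 80.2, 71.7 and 130 CPM in T cell-like cells, a ratio of 1.61 (1.31 to 2.0), with the combination the highest. Within cluster 6, which holds most Pdcd1 RNA, its ratio was 0.940 (0.760 to 1.17). The level within that cluster was not higher in the combination.

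Genes of naive T cells were lower. None of the 16 measured members of that list had a log2 ratio above 0, the median was -0.38 (-0.34 for YKL-5-124 over control), and 2 fell. Of the 16, 1 counted as measured through the anti-PD-1 library alone, which fixes its direction. Of the other 15, 2 fell. Ccr7, which guides naive T cells into lymph nodes, stood at 903, 898, 740 and 526 CPM, a ratio of 0.586 (0.545 to 0.630), and Igfbp4 stood at 138, 140, 104 and 88.0 CPM, a ratio of 0.628. The combination was the lowest library for both. Lef1, which helps to keep T cells in their naive state, had a ratio of 0.661 and did not reach the size rule. Within cluster 4 itself, Ccr7 had a ratio of 0.943 (0.825 to 1.08).

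Cytotoxic genes did not rise with the addition of the inhibitor. Of 21 measured, 1 rose and 3 fell, with a median of -0.10, against 7 that fell and a median of -0.32 for YKL-5-124 over control. Gzmb (granzyme B) stood at 459, 148, 228 and 143 CPM, a ratio of 0.962 (0.817 to 1.14), so the control library was the high one. Prf1 (perforin) had a ratio of 0.982 and the cytokine Ifng (interferon gamma) 0.911 (0.610 to 1.38). Ccl5, a chemokine of memory CD8 T cells and NK cells, stood at 5499, 6049, 4039 and 3363 CPM, a ratio of 0.556 (0.541 to 0.572). In cluster 6, 12 of 24 measured cytotoxic genes fell and 1 rose, with a median of -0.59 (-1.25 for YKL-5-124 over control), where 6.65% of all genes fell. There Ccl5 stood at 9578, 11550, 2749 and 2222 CPM, a ratio of 0.192, with both inhibitor libraries low, and Nkg7, a granule protein, had a ratio of 0.580. The direction was not shared by all clusters, since Ccl5 had a ratio of 1.65 in cluster 7.

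Interferon-stimulated genes encode antiviral and antigen-presenting proteins and answer to type I and type II interferons. In T cell-like cells 8 of 41 rose and 1 fell, with a median of 0.13. Of the 41, 3 counted as measured through the combination library alone and 1 through anti-PD-1 alone, which fixes their direction. Of the other 37, 6 rose and 0 fell. When T cells were gated cell by cell, 1 rose, and with 50 CPM added in place of 10, 2 did. Isg15, a ubiquitin-like modifier, stood at 95.9, 64.6, 92.2 and 123 CPM, a ratio of 1.90 (1.52 to 2.41), Ifi27l2a at 526, 588, 713 and 1039 CPM, a ratio of 1.77, and Ifit1 at 43.2, 25.8, 59.3 and 58.9 CPM, a ratio of 2.28. For Isg15 and Ifit1 the anti-PD-1 library was the lowest of the 4. The members that rose were chiefly in cluster 11, where 22 of 45 rose with a median of 0.56 (11.1% of all genes rose there) and Isg15 stood at 316, 131, 255 and 406 CPM. In cluster 6, 1 of 35 rose. Free RNA of Isg15 was 1.64-fold in the combination, and its part in the result was not tested.

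Other genes that rose in T cell-like cells included Lgals1, Lgals3, S100a6 and Vim, which myeloid cells also express. Lgals1 (galectin 1) stood at 901, 768, 2444 and 2409 CPM, a ratio of 3.14, and Lgals3 at 67.7, 75.5, 286 and 292 CPM, a ratio of 3.87. S100a6 stood at 383, 443, 1005 and 1282 CPM and Vim (vimentin) at 221, 282, 748 and 715 CPM. For these 4 genes both inhibitor libraries stood above both libraries without it. Summed monocyte and macrophage markers in the same cells were 476, 483, 655 and 490 CPM. Ifitm1, an interferon-induced membrane protein, stood at 5.86, 15.6, 68.5 and 146 CPM, a ratio of 9.31 (6.13 to 14.8), from 5 and 32 cells. In the combination 60.0% of the Ifitm1 UMIs were in 5 cells, and without the 5 richest cells of each library its log2 ratio was 2.78. All anti-PD-1 UMIs of Ifitm1 were in 5 cells, so that removal leaves none there and fixes the direction. The combination alone was high for Cst3 (cystatin C, 190, 150, 195 and 641 CPM), where 56.5% of its 2070 UMIs were in 5 cells and the log2 ratio moved from 2.03 to 1.05 without the 5 richest. It was also high for Lgals7 (4.795, 9.52, 4.32 and 59.8 CPM).

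Some of the largest falls rested on few cells of the anti-PD-1 library. Xcl1, a chemokine that attracts dendritic cells, stood at 169, 423, 122 and 110 CPM, a ratio of 0.261, and 285 of the 622 anti-PD-1 UMIs were in 1 cell. Without the 5 richest cells of each library the log2 ratio of Xcl1 moved from -1.85 to -0.41. Penk, which encodes enkephalins, stood at 18.1, 142, 72.3 and 66.0 CPM, with 78.5% of its anti-PD-1 UMIs in 5 of 13 cells, and moved from -1.0 to -0.30. Hspa1a, an inducible heat shock protein that tissue digestion can also induce, had a ratio of 0.190, with 92.7% of its anti-PD-1 UMIs in 5 cells, and its log2 ratio turned from -1.90 to 0.29 without them. Gzmk (granzyme K) stood at 38.4, 68.7, 35.6 and 30.7 CPM, a ratio of 0.447. The anti-PD-1 library was the highest of the 4 for each of these genes, Hspa1a by little over the control (93.2 against 90.04 CPM).

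Genes that rose in T cell-like cells beside the antibody often moved the same way without it. Of the 303 that rose, 277 (91.4%) had a ratio above 1 in YKL-5-124 over control, where 63.3% of all measured genes did, and 161 (53.1%) rose there by the size rule, where 6.42% of all measured genes did. Of the 88 that fell, 69.3% lay below 1 in the second pair (36.7% of all) and 9.09% fell by the size rule (0.804% of all). The pairs share no library, although all 4 libraries share barcodes as given above.

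**Figure D3:**
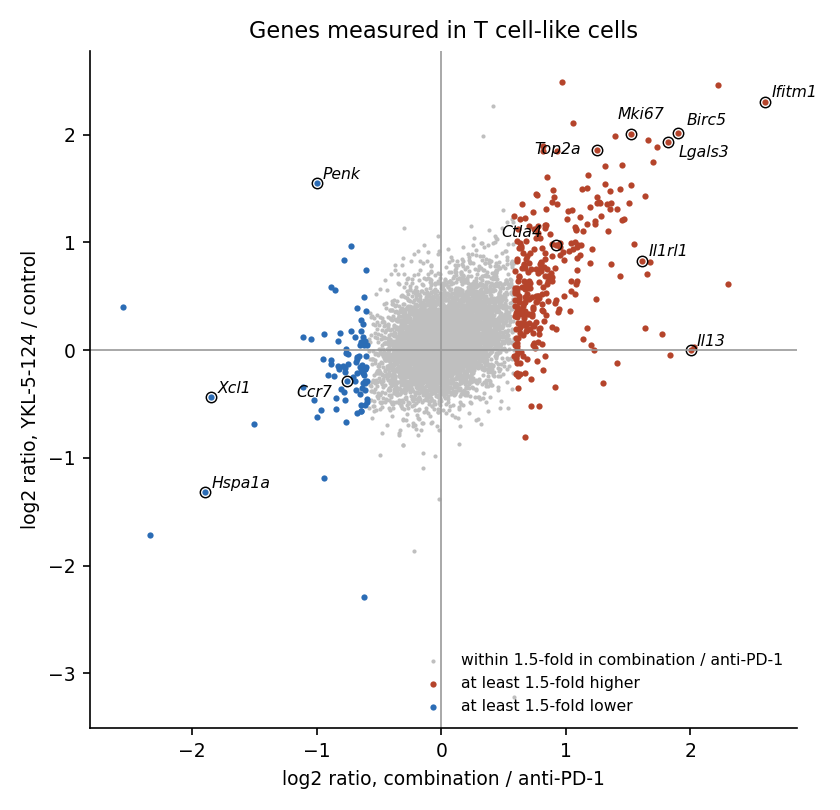
Log2 ratio (10 CPM added) of each of 6837 genes measured in T cell-like cells, combination over anti-PD-1 on the horizontal axis and YKL-5-124 over control on the vertical; red and blue points passed 1.5-fold on the horizontal axis and ringed points are named. Mki67, Birc5, Top2a and Lgals3 are high on both axes, Il13 is high on the horizontal axis alone, and Penk is low on the horizontal axis and high on the vertical.

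In the NK cell-like cells (286 and 374 cells) 379 of 6817 measured genes rose (5.56%) and 384 fell (5.63%). Genes of the G2 and mitosis list rose here too, 27 of 40 with a median of 0.89 (19 and 0.49 for YKL-5-124 over control), but from very few cells. Of the 40, 20 counted as measured through the combination library alone, and of the other 20, 8 rose. Mki67 stood at 18.5, 23.5, 48.2 and 75.6 CPM, a ratio of 3.22 (1.74 to 6.40), from 8 and 11 cells. Ccnb2 (cyclin B2) had 2 UMIs in the anti-PD-1 and 52 in the combination library, a ratio of 18.7 (4.93 to 159). Without cluster 23, which held 3 anti-PD-1 and 9 combination cells, 3 members rose, and with cells weighted equally 6 did.

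Of 22 measured cytotoxic genes 5 fell and 0 rose in NK cell-like cells, with a median of -0.25. Of the 22, 1 counted as measured through the anti-PD-1 library alone, which fixes its direction. Of the other 21, 4 fell and 0 rose. Ccl3, a chemokine for monocytes and T cells, stood at 776, 689, 438 and 258 CPM, a ratio of 0.374 (0.314 to 0.446). Klrg1, an inhibitory receptor of mature NK cells, stood at 244, 327, 149 and 138 CPM, a ratio of 0.422, and Zeb2, a transcription factor of NK maturation, at 235, 248, 155 and 137 CPM, a ratio of 0.552. Ccl5 stood at 31810, 33860, 25940 and 22400 CPM, a ratio of 0.662. Both libraries with inhibitor were the low ones for all 4 genes. The killing genes themselves did not reach the rule: Gzmb had a ratio of 0.975, Prf1 0.834 and Gzma 0.812. Sgk1, a stress-induced kinase, and Bcl2a1b, a survival protein, fell with ratios of 0.419 and 0.368.

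Of 27 measured interferon-stimulated genes 7 rose and 1 fell in NK cell-like cells, with a median of 0.35. Of the 27, 2, among them Ifi27l2a, counted as measured through the combination library alone, which fixes their direction. Of the other 25, 6 rose and 1 fell. Bst2 (tetherin) stood at 49.9, 43.4, 58.3 and 82.1 CPM, a ratio of 1.89 (1.17 to 3.17), Rtp4 had a ratio of 2.59, and Ifi27l2a had 2 and 38 UMIs, a ratio of 13.7 (3.54 to 117). Heat shock genes, which encode protein-folding chaperones, rose in 5 of 11, and all 11 were above 0, with a median of 0.58 against -0.21 for YKL-5-124 over control. Hspa1a counted as measured through the combination library alone, and of the other 10, 4 rose. Hsp90ab1 stood at 1219, 731, 1147 and 1235 CPM, a ratio of 1.69, and Hspe1 at 414, 241, 348 and 417 CPM, a ratio of 1.73. Here the anti-PD-1 library was the low one and the other 3 were alike.

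The B cell-like cells (419 and 497 cells) had the same feature. Of 6509 measured genes 259 rose (3.98%) and 255 fell (3.92%). Of 11 heat shock genes 5 rose and all 11 were above 0, with a median of 0.56 against -0.10 for YKL-5-124 over control. Hspa1a counted as measured through the combination library alone, and of the other 10, 4 rose. Hsp90ab1 stood at 1294, 790, 1117 and 1260 CPM, a ratio of 1.6, and Hsph1 at 95.1, 53.5, 129 and 130 CPM, a ratio of 2.44, with anti-PD-1 again the lowest. Interferon-stimulated genes rose in 8 of 30 and fell in 1, with a median of 0.19. Of the 30, 4, among them Isg15, counted as measured through the combination library alone and 1 through anti-PD-1 alone, which fixes their direction. Of the other 25, 5 rose and 0 fell. Isg15 stood at 51.5, 6.07, 18.7 and 22.7 CPM, a ratio of 3.73 (1.36 to 12.7), from 5 and 19 cells, and Ifi47, an interferon-induced GTPase, at 67.2, 24.3, 50.9 and 62.3 CPM, a ratio of 2.57. The anti-PD-1 library was the lowest for both, and the combination did not exceed the control. Genes of the G2 and mitosis list did not rise in these cells: 0 of 24 rose and 5 fell, with a median of -0.20. Of the 24, 3 counted as measured through the anti-PD-1 library alone, which fixes their direction. Of the other 21, 0 rose and 4 fell, with a median of -0.13. Thinned to 800 UMIs, B cell-like cells with at least 3 cell cycle UMIs were 9.56% with anti-PD-1 and 15.3% with the combination, a ratio of 1.598 (1.071 to 2.417). With at least 2 the ratio was 1.154 (0.908 to 1.47), and with at least 3 after thinning to 600 UMIs it was 1.456 (0.888 to 2.431). Both of these intervals include 1. S100a6 fell, with 67.2, 388, 161 and 119 CPM, and 69.0% of its anti-PD-1 UMIs were in 5 cells.

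Monocyte- or macrophage-like cells of the combination library had less RNA of MHC class II genes, through which these cells present antigen to CD4 T cells. In this class 162 of 6639 measured genes rose (2.44%) and 156 fell (2.35%). All 10 measured genes of the list were below 0 and 7 fell, with a median log2 ratio of -0.62, against 9 and -1.16 for YKL-5-124 over control. H2-Aa stood at 7591, 6574, 3354 and 3703 CPM, a ratio of 0.563 (0.546 to 0.581), and the invariant chain Cd74 at 32770, 26130, 14730 and 16790 CPM, a ratio of 0.642. Ciita, the regulator that switches these genes on, stood at 39.8, 45.1, 17.3 and 22.6 CPM, a ratio of 0.501 (0.339 to 0.746). Both libraries with inhibitor were low for all 3 genes. Free RNA of H2-Aa was 0.978-fold and of Cd74 1.06-fold in the combination.

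The class holds 3 clusters, whose mix differed between libraries, so values within each are needed. Cluster 9, led by F13a1, Lyz2 and Chil3, genes of classical monocytes, held 75 anti-PD-1 and 284 combination cells. There 6 of 8 measured class II genes fell, with a median of -1.01 (6.93% of all genes fell), and H2-Aa stood at 2878, 1953, 974 and 857 CPM, a ratio of 0.439 (0.398 to 0.484). Cluster 10, led by Treml4, Cd300e and Ear2, genes of nonclassical monocytes (89 and 245 cells), went the other way, with none of 6 lower, 1 higher and a median of 0.30, and H2-Aa at 2069, 726, 1414 and 992 CPM. In cluster 12, led by C1qa, C1qb and Mmp12, genes of macrophages (92 and 138 cells), none of 10 reached the rule, the median was -0.22 and H2-Aa had a ratio of 0.788 (0.762 to 0.814). The leading genes of cluster 12 also included the class II gene H2-DMb1 and Cd209a, one of the markers used for conventional dendritic cells. Whether dendritic cells were among its cells was not tested. Cluster 12 had the highest H2-Aa level in each library, and it made up 39.1%, 35.9%, 18.5% and 20.7% of the class in the 4 libraries. The part of the cluster mix in the value for the class was not tested. When classes were gated cell by cell instead of by cluster, 3 of the list fell rather than 7.

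**Figure D4:**
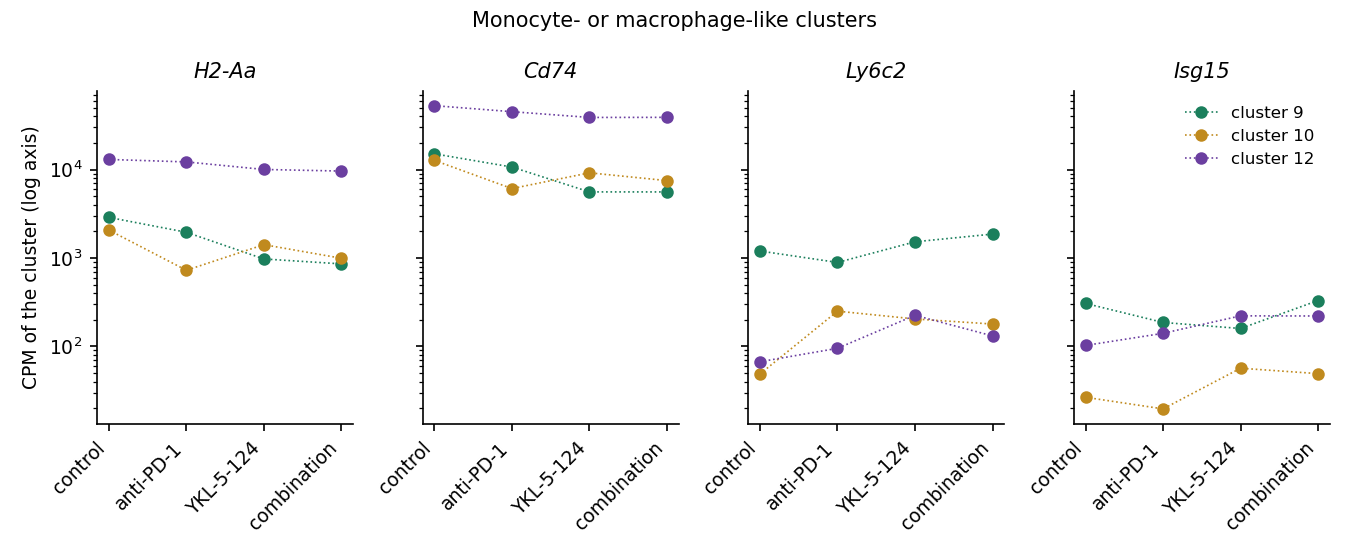
Level in CPM of the cluster, on a log axis, of H2-Aa, Cd74, Ly6c2 and Isg15 in the 3 monocyte- or macrophage-like clusters of the 4 libraries; each point is the summed UMIs of 1 library, and dotted lines only join points of a cluster. H2-Aa in cluster 9 stands at 1953 CPM with anti-PD-1 and 857 with the combination, in cluster 10 at 726 and 992, and cluster 12 is the highest in all 4 libraries.

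Ly6c2, the surface protein of classical monocytes, rose in the class, with 407, 385, 938 and 891 CPM, a ratio of 2.31. It rose in cluster 9 (2.09) but not in cluster 10 (0.715). Interferon-stimulated genes rose in 10 of 39, with a median of 0.27. Of the 39, 3, among them Ifit1, counted as measured through the combination library alone, which fixes their direction. Of the other 36, 7 rose and 0 fell. Ifit1 stood at 12.3, 4.90, 20.02 and 30.0 CPM, a ratio of 6.13 (2.53 to 19.3), Rsad2 (viperin) had a ratio of 2.70, Ifit3 2.38 and Isg15 1.72. In cluster 9 (75 anti-PD-1 and 284 combination cells) the median of the list was 0.42, against -0.59 for YKL-5-124 over control. In those cells the pairs differed in direction, a difference that was not tested.

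The chemokine Ccl17, a ligand of the receptor CCR4, stood at 711, 216, 677 and 2034 CPM, a ratio of 9.44 (8.25 to 10.9), with UMIs in 16 and 64 cells. The combination was the highest and anti-PD-1 the lowest of the 4 libraries, and 84.5% of the 220 anti-PD-1 UMIs of Ccl17 came from 5 cells. Without the 5 richest cells of each library its log2 ratio was 4.96. In cluster 12 Ccl17 stood at 1477, 454, 2653 and 6330 CPM, a ratio of 13.9, and free RNA of Ccl17 was 16.0-fold in the combination. Ccl7, which attracts monocytes, stood at 22.8, 26.5, 98.5 and 245 CPM, a ratio of 9.27 (6.32 to 14.2). Spp1 (osteopontin) stood at 116, 26.5, 214 and 370 CPM, a ratio of 14.01, but 585 of its 1099 combination UMIs were in 1 cell, and without the 5 richest cells its log2 ratio was 1.74. Mfge8, a bridge for the uptake of dying cells, had a ratio of 4.73, from 14 and 64 cells.

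**Figure D5:**
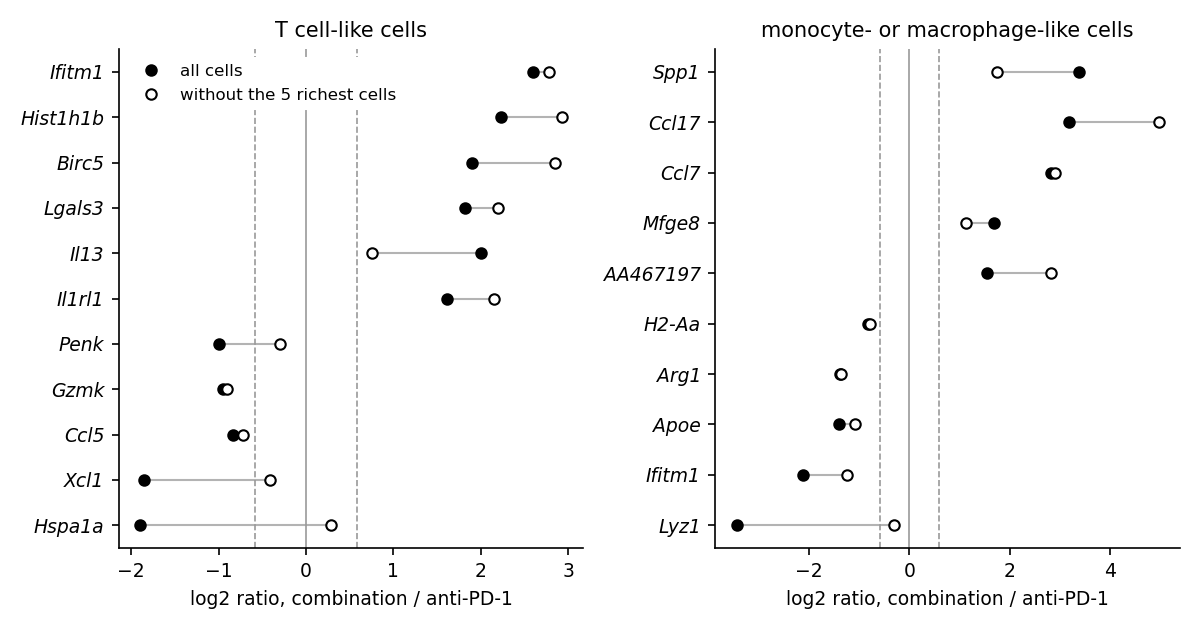
Log2 ratio of combination to anti-PD-1 (10 CPM added) for genes with large differences in T cell-like and monocyte- or macrophage-like cells, with all cells (filled) and without the 5 cells of each library richest in that gene (open); dashed lines mark 1.5-fold. Xcl1, Penk, Lyz1 and Hspa1a come inside the lines or cross 0 without those cells, and Birc5, Il1rl1, Ccl7 and H2-Aa stay outside them. In T cell-like cells, all anti-PD-1 UMIs of Ifitm1 lay in 5 cells and Il13 had 0, so their open points could not be negative. Of the anti-PD-1 UMIs of Il1rl1, 91.7% lay in 5 of 6 cells.

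Among genes that fell, Apoe (apolipoprotein E) stood at 3303, 4123, 2524 and 1558 CPM, a ratio of 0.378. Arg1 (arginase 1, which depletes arginine) stood at 9.49, 223, 28.7 and 79.9 CPM, a ratio of 0.358, so it was the anti-PD-1 library that was high, from 13 cells there and 12 in the combination. Lyz1 (a lysozyme) stood at 69.2, 226, 15.7 and 11.8 CPM, with 96.1% of its anti-PD-1 UMIs in 5 cells. Ifitm1 stood at 290, 292, 210 and 59.7 CPM, a ratio of 0.204, the opposite of its direction in T cell-like cells. Cxcl10, a chemokine for CXCR3-bearing T cells, had a ratio of 0.611 in this class and 2.27 in T cell-like cells. Without the 5 richest cells its log2 ratio turned from -0.61 to 0.55 in this class and was 0.94 in T cell-like cells.

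The tumour cell-like cells were the class in which fewest genes moved. Of 8975 measured genes 19 (0.212%) rose and 16 (0.178%) fell, from 7451456 and 7487774 summed UMIs. Without copies, 15 (0.167%) rose and 17 (0.189%) fell of 8990. None of the 54 genes of the G2 and mitosis list reached the rule, and their log2 ratios ran from -0.19 to 0.17 with a median of 0.01, beside 0.26 and 1 that rose for YKL-5-124 over control. Mki67 stood at 296, 339, 364 and 381 CPM, a ratio of 1.12 (1.06 to 1.19). Cells with at least 3 cell cycle UMIs after thinning to 1500 UMIs were 91.2%, 94.8%, 92.9% and 92.8%, a ratio of 0.979 (0.857 to 1.12). Thinning kept 481 anti-PD-1 and 473 combination cells and left out 407 and 333 shallower ones. Shares this high leave little room for a rise. With at least 5 such UMIs they were 83.8% and 84.8% in the anti-PD-1 and combination libraries, a ratio of 1.012 (0.879 to 1.165). The neuroendocrine list did not move (0 of 30, median 0.01). Cdk7, the target of the inhibitor, stood at 14.8, 14.6, 19.2 and 15.1 CPM, a ratio of 1.03, and none of 16 measured genes of its TFIIH list moved past the rule.

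Antigen presentation and interferon genes barely differed in the tumour cell-like cells. None of 21 MHC class I genes reached the rule, with a median of 0.05, and B2m, the light chain of MHC class I, stood at 959, 849, 865 and 1015 CPM, a ratio of 1.20 (1.16 to 1.24). Of 19 interferon-stimulated genes 1 rose, with a median of 0.07. Ifi27l2a counted as measured through the combination library alone, which fixes its direction. Of the other 18, 0 rose. Cxcl10 stood at 13.7, 13.8, 11.6 and 24.2 CPM, a ratio of 1.75 (1.37 to 2.25) that did not reach the rule with 10 CPM added, and its log2 ratio moved from 0.52 to 0.04 without the 5 richest cells. Cd274, which encodes the PD-1 ligand PD-L1, had a ratio of 1.09 (0.803 to 1.48).

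Among the largest falls, the anti-PD-1 library again stood apart. Hist1h2ap, a replication-linked histone, stood at 277, 660, 199 and 275 CPM, a ratio of 0.417 (0.396 to 0.439), and Gstp1, a glutathione transferase, at 107, 196, 79.7 and 102 CPM. For both genes the anti-PD-1 library was highest and the combination lay near the control. Trib3, which is induced by ATF4 in the integrated stress response, fell with a ratio of 0.513 (0.407 to 0.642), at 47.5, 31.0, 26.1 and 15.9 CPM. Each inhibitor library was below its partner, and the YKL-5-124 to control ratio of Trib3 was 0.549. Nupr1, another gene of that response, stood at 556, 376, 290 and 271 CPM and Eif4ebp1, an inhibitor of translation, had a ratio of 0.688; neither reached the rule.

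Genes of myeloid cells were among the 19 that rose in the tumour cell-like cells: S100a8 stood at 15.4, 17.0, 66.3 and 60.9 CPM, S100a9 had a ratio of 3.17, Il1b 3.61 and Lyz2 3.12. In the combination 78.3% of the S100a8 UMIs, 66.9% of those of S100a9 and 62.0% of those of Il1b were in 5 cells, against 12.7% for Lyz2. Without the 5 richest cells of each library the log2 ratios of S100a8, S100a9, Il1b and Lyz2 were 0.48, 0.65, 0.47 and 1.27. The summed neutrophil markers in this class were 61.2 CPM with anti-PD-1 and 138 with the combination, and the monocyte markers 68.9 and 139. Free RNA of S100a8 was 1.35-fold and of Lyz2 2.04-fold in the combination, and their part in the result was not tested. Lgals1 stood at 12.03, 15.4, 22.2 and 44.6 CPM, a ratio of 2.89 (2.33 to 3.604), and rose. Among genes with at least 50 CPM in either library that are not markers of another class, the largest ratios lay near the rule or under it. Scand1 had a ratio of 1.54, Clca3b 1.49, Cldn7 (claudin 7, a tight junction protein) 1.48, Pcsk1n (an inhibitor of prohormone convertase) 1.45 and Hspa5 (the endoplasmic reticulum chaperone BiP) 1.41. For Hspa5 the 4 values were 805, 564, 847 and 794 CPM, with anti-PD-1 the low one.

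Neutrophil-like cells were few (86 and 175 cells, 100627 and 324819 UMIs), and 1104 of 5468 measured genes rose (20.2%) and 1143 fell (20.9%), so a count here stands against a wide background. Genes of the neutrophil granules, which are made in the bone marrow before the cell matures, rose in 9 of 10 and fell in 1, with a median of 1.07, against 8 and 2.57 for YKL-5-124 over control. Ngp stood at 23.6, 9.94, 23430 and 2155 CPM. Its ratio of 217 (38.8 to 8577) rests on 1 anti-PD-1 UMI. Camp (cathelicidin) and Ltf (lactoferrin) had 0 UMIs in both libraries without inhibitor and 226 and 83 in the combination, at least 23.3-fold and at least 8.57-fold higher with a floor of 3 UMIs over the class. These UMIs came from 8 and 9 cells, with 91.2% and 91.6% in 5 of them, and those of Ngp from 26 cells, with 83.6% in 5. Without the 5 richest cells the log2 ratios of Camp, Ltf and Ngp were 2.90, 1.71 and 5.26. With 0, 0 and 1 anti-PD-1 UMIs before removal, these ratios could not be negative. The 3 genes were under 10 CPM with anti-PD-1 and counted as measured through the combination library alone. Of the other 7, 6 rose and 1 fell. For Camp, Ltf and Ngp both libraries with inhibitor were the high ones, and YKL-5-124 alone was the highest. Lcn2 (lipocalin 2) stood at 268, 427, 3695 and 1028 CPM, a ratio of 2.41 (1.75 to 3.39), and Mmp9, a protease of later granules, went the other way, with a ratio of 0.615.

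Much of the granule RNA lay in cluster 14, led by Camp, Ltf and Ngp, with 9 anti-PD-1 and 28 combination cells. Within cluster 8, the more mature cells, 6 of 8 granule genes rose and 1 fell, with a median of 0.72, where 22% of all genes rose. Interferon-stimulated genes rose in 16 of 39 and fell in 3, with a median of 0.45, against -0.40 for YKL-5-124 over control. Of the 39, 7 counted as measured through the combination library alone and 1 through anti-PD-1 alone, which fixes their direction. Of the other 31, 10 rose and 2 fell. Isg15 stood at 1047, 358, 267 and 650 CPM, a ratio of 1.82 (1.27 to 2.66), with the control highest. Klf2, a transcription factor of quiescence, fell with a ratio of 0.288, as did Wfdc17 (0.303) and the immediate early gene Egr1 (0.400).

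The share of genes that passed the rule in both pairs was given above for T cell-like cells. Of the genes that rose beside the antibody, 21.4% rose without it in NK cell-like cells (7.36% of all measured genes did), 9.27% in B cell-like cells (3.47%), 17.3% in monocyte- or macrophage-like cells (3.65%), 18.4% in neutrophil-like cells (14.5%), where 26.1% fell without it, and 31.6% in tumour cell-like cells (0.234%). Of those that fell beside the antibody, 34.6% fell without it in monocyte- or macrophage-like cells (3.49%), 12% in NK cell-like cells (5.66%), 7.45% in B cell-like cells (1.63%), 27.8% in neutrophil-like cells (26.6%) and 43.8% in tumour cell-like cells (0.123%).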

How the data were processed

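Unique molecular identifier (UMI) counts per gene and barcode were used as deposited by the authors, raw and whole-number, 1 unfiltered matrix per library, 4 libraries in all, from Cell Ranger per the submitters' processing notes (bcl2fastq is also named) and software version 3.0.0 per the file headers. The notes name hg19 as the build, while the files list mouse Ensembl identifiers, so no coordinates were taken from the files. Median UMIs per cell were 1939 to 2239.

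From these counts, doublets were scored with Scrublet in Scanpy 1.11.5 and the highest scores removed, 0.8% of cells per 1000. Cells of all 4 libraries were clustered together (2000 variable genes, 30 components, 15 neighbours, Leiden resolution 1, leidenalg 0.10.2) into 25 clusters. They were named from fixed markers of 17 cell types where at least 3 markers were detected and at least 1 was among the cluster's 10 leading genes. A name was withheld only if another class had more markers among those 10, so a named cluster can have leading genes of another class. A cluster of 277 cells (led by Ccl1, Cxcr6, Tcrg-C1 and Il1rl1) and one of 67 stayed unnamed. Each class's UMIs were added up within a library and divided by their total. Ratio intervals are exact conditional binomial and share intervals exact Clopper-Pearson at 95%, and UMIs are treated as independent molecules. No p-value was computed, with 1 library per group. Genes named were, by log2 ratio, the 10 at the top and 10 at the bottom in tumour cell- and T cell-like cells and 5 and 5 in other classes (at least 50 CPM in either library, 50 UMIs and 10 cells), without mitochondrial, ribosomal, sex-linked, antigen receptor and haemoglobin genes and other classes' markers, up to 4 per list described, and a fixed set including Cdk7, Pdcd1, Mki67, Gzmb and Cxcl10. Other genes in the text (Vim and S100a6 in T cell-like cells, myeloid genes in tumour cell-like cells, genes within clusters) were chosen after their values were seen. The comparison, its markers and its 34 gene lists were chosen with earlier results of these data known. Alternatives included other pseudocounts, filters, scalings (TMM, edgeR 4.0.16 in R 4.3.3), gates and doublet settings. Scripts ran in Python 3.11.15 with SciPy 1.17.1 for intervals, scikit-learn 1.9.0, pandas 2.3.3 for tables and NumPy 2.4.6, and plots used Matplotlib 3.10.9. Results for some genes are not reported here.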

Additional observations from a re-analysis of the deposited data

Results flagged for a closer look

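The results here moved in opposite directions when the inhibitor was added to the antibody and when it was given alone. None of these differences between the pairs was tested, since each pair is 1 library against 1. For the share of T cell-like cells the ratio was 1.2 beside the antibody and 0.708 without it, and that of endothelial cell-like cells 2.91 and 0.179.

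In T cell-like cells, the log2 ratio of Penk was -1.0 beside the antibody and 1.55 without it. In B cell-like cells that of S100a6 was -1.62 and 1.15. Both genes were highest in the anti-PD-1 library, and most of their UMIs there came from 5 cells. In monocyte- or macrophage-like cells Arg1 had -1.38 and 0.99 and was likewise highest with anti-PD-1, while AA467197 (Nmes1) had 1.55 and -0.59 and was highest in the combination. In neutrophil-like cells Selenow, a small selenoprotein, had 2.17 and -0.80, from 3 UMIs in the anti-PD-1 library. Also in neutrophil-like cells, the median of the interferon-stimulated genes was 0.45 beside the antibody and -0.40 without it, and that of the heat shock genes 0.50 and -0.68.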

How the results depend on the processing

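Of 465 recomputed values of shares, counts and lists, 374 kept their direction and size, 90 moved and 1 reversed. No paired analysis was possible because each group is 1 library. Depth limits the neutrophil-like cells most (100627 and 324819 UMIs). All alternatives about copies, and that without the 5 cells richest in a gene, were chosen after seeing the data.

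With a pseudocount of 1 CPM, genes that rose and fell were 44 and 48 in tumour cell-like cells, 546 and 257 in T, 725 and 756 in NK, 554 and 566 in B and 406 and 391 in monocyte- or macrophage-like cells, T cell G1/S genes 18 and naive genes 6. With 50 CPM they were 3 and 6, 80 and 16, 35 and 24, 15 and 14, 24 and 37, and 406 and 293 in neutrophil-like cells. Then T cell lists had 15 (G2 and mitosis), 5 (G1/S), 2 (interferon) and 1 (naive), NK lists 10 (G2 and mitosis), 1 (interferon) and 3 (heat shock), B cells 2 (interferon) and 3 (heat shock), monocytes 1 and neutrophils 7 (interferon). Percentages shared with the second pair were 62.5 and 18.8 for T genes higher and lower, 34.3 for NK genes higher and 66.7 for tumour genes higher. At a 2-fold rule they were 18.2 for T genes lower and 14.3 for tumour genes lower.

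With a mean of at least 50 CPM, genes that rose and fell were 2 and 8 (tumour), 112 and 25 (T), 77 and 68 (NK), 54 and 36 (B), 53 and 47 (monocyte) and 368 and 280 (neutrophil). List members were then 12 (G2 and mitosis), 2 (G1/S), 2 (type 2) and 3 (interferon) in T cells, 2 (G2 and mitosis) and 3 (interferon) in NK cells, and 2, 3 and 9 (interferon) in B cells, monocytes and neutrophils. With cells weighted equally the counts were 121 and 83 (tumour), 179 higher (T), 254 and 284 (monocyte), 12 and 6 (G2 and mitosis in T and NK cells) and 0 (naive, T).

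A cell-by-cell gate gave 9 tumour genes higher, 1 interferon and 4 naive T cell genes, 3 MHC class II genes lower and 6 interferon genes in monocytes. Without doublet removal, 38 tumour genes rose, 150 B cell genes fell and 1 naive T cell gene fell. With 10% free RNA subtracted, 5 tumour genes and 17 G1/S genes in T cells rose. With TMM scaling, 3 heat shock genes rose in B cells. Without the top 1% of cells by UMIs, 15 G2 and mitosis genes rose in NK cells, and without cluster 23, 3. Without cluster 6 the T cell counts were 1 for G2 and mitosis, with the median turned negative, and 2 for G1/S. The neutrophil share ratio was 2.21 with at least 1000 UMIs, the monocyte ratio 2.18 at resolution 0.5, and the tumour and T cell ratios outside the myeloid classes 0.690 and 1.33. Cells with at least 5 cell cycle UMIs gave 2.37 (1.49 to 3.92) in T and 2.49 (0.622 to 14.3) in B cells, against 1.24 and 1.6 with at least 3. The B cell value with at least 5 rests on 3 anti-PD-1 and 9 combination cells.

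Of 279 single gene values, 278 stayed on the same side of the 1.5-fold rule without copies, whatever the change in size. A gene was called reversed only where its main value had passed the rule. Without the 5 richest cells the log2 ratio reversed for Ccl5 (0.44) and Top2a (0.14) in B cells, Hspa1a (0.29) in T cells, Cxcl10 (0.55) in monocytes, and Cd274 (1.21), Gbp2 (0.42) and Slfn8 (0.40) in neutrophils. Top2a in B cells was also 0.06 with cells weighted equally, 0.20 without doublet removal and 0.15 without the top 1%. With the gate Hspa1a (0.14) and Ifit3 (-0.16) in T cells and Gbp2 (0.02) in neutrophils reversed, as did Tacc3 (-0.08) in T cells with cells weighted equally. Apart from alternatives that name their own change (fewer genes, cells or a stricter rule), the cause was not tested.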

Other observations

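Across the 6 classes, 3760 genes were measured in every one. A total of 6 genes rose in at least 4 classes and 9 fell in at least 4. The genes that fell in all 6 were Jchain, Igha and Ighg1, which are made by plasma cells, and Gstp1. Igkc and Ccl5 fell in 5 classes, and Apoe and Uvssa in 4. The median log2 ratio over the classes was -2.27 for Igha and -1.46 for Jchain. Summed plasma cell markers in free RNA were 1162, 1560, 669 and 376 CPM in the 4 libraries (in the order used above), and plasma cell-like cells numbered 38, 36, 17 and 18. The part of free RNA in these values was not tested.

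Scgb1a1, the secretoglobin of airway club cells, rose in 5 classes and fell in tumour cell-like cells. Summed airway markers in free RNA were 638, 941, 1876 and 3415 CPM, and airway epithelial cell-like cells numbered 7, 10, 16 and 38. The leading genes of that class also included the alveolar markers Sftpc, Sftpa1 and Sftpb, so its cells may not all be airway cells. Stip1, a co-chaperone of HSP70 and HSP90, rose in 5 classes, with a median log2 ratio of 0.83. Isg15, Lgals1 and Lyz2 rose in 4. In T cell-like cells 5 of 9 measured MHC class II genes rose, with a median of 0.67. H2-DMb1 counted as measured through the combination library alone, which fixes its direction. Of the other 8, 4 rose. In T cell-like cells the summed B cell markers stood at 301 CPM with anti-PD-1 and 212 with the combination, and dendritic cell markers at 6.12 and 18.6. The subsets differed. In CD4 cells 5 of 10 rose and 2 fell (median 0.68), and in CD8 cells 0 of 8 rose and 4 fell (-0.53). In cells with neither, 0 of 9 rose and 0 fell (0.01). In cluster 11 alone, 7 of 8 rose, with a median of 2.58.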
